A study of Mus musculus with 36 samples.

Results

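The lungs of male mice given a mixture of the dispersant Corexit 9500 and crude oil of the MC252 well (9500+oil) were compared with those of male mice given saline. The comparison holds 6 of the 36 RNA-seq libraries of the study, 3 of 9500+oil (mice 13 to 15) and 3 of saline (mice 1 to 3), and was chosen by the treatment and sex in the sample labels. All mice were wild-type C57BL/6, were 8 weeks old when dosing began, were dosed on days 0, 7 and 13, the treated ones with fractions of strength 0.1, and had the left lung taken for RNA at euthanasia on day 14. The labels speak of a water-accommodated fraction (WAF), while the methods describe one made in Hank's balanced salt solution. The series text names instillation into the trachea as the route and the methods aspiration from the throat, and the control is called saline in both. The 9500+oil mixture hardly separated into phases and was used whole, whereas only the saline phase of the oil preparation was given. The 9500+oil mice are also set against male mice given oil alone (mice 4 to 6) or Corexit 9500 alone (mice 7 to 9). These 2 groups hold 3 mice each, with the same strain, age, days and strength. Male mice given Corexit 9527, another dispersant (mice 10 to 12), or 9527+oil (mice 16 to 18) enter the plot of single genes by male group. They also enter the range of mitochondrial counts over all male libraries and the alternative with all groups in one fit. The female 9500+oil and saline mice (3 each) serve for the comparison of the sexes, which were treated apart.

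Corexit 9500 is a mixture of surfactants and solvents that breaks oil into small droplets. Inhaled particles and droplets meet the airway lining, which secretes mucus and detoxifying enzymes, and the alveolar macrophages, which take up debris. Injured lung epithelium calls in neutrophils and monocytes and is rebuilt by cell division, so genes of mucus, phagocytes, acute phase proteins and mitosis are those usually read in such tissue.

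The 6 libraries held 19188527 to 22296844 counts, of which 5.27% to 7.36% came from mitochondrial genes. Levels are in CPM, the number of counts in 1000000 of a library, scaled by TMM. Lung markers were high in all 6, with 10876 to 15390 CPM of Sftpc (surfactant protein C of alveolar type 2 cells) and 1706.5 to 2523.9 CPM of Ager (alveolar type 1 cells). Acta1 of skeletal muscle stayed at or below 0.316 CPM, while Myh6, the heart muscle myosin, reached 67.3 to 191 CPM. GC-rich genes stood lower against GC-poor genes in saline mouse 3, at -0.25 on the log2 scale, while the other 5 libraries lay between -0.01 and 0.13. Of the 25% of genes with the highest GC content, 396 were higher and 47 lower in 9500+oil mice at an unadjusted p under 0.05, and of the 25% with the lowest 61 were higher and 256 lower. A fit with GC and length offsets was run beside the test, and values from it are given beside several results. The part of GC content was not tested otherwise.

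Between 9500+oil and saline, 0 (0%) of the 14889 genes tested had an adjusted p under 0.05 in edgeR's quasi-likelihood test, and the lowest adjusted p was 0.506. At an unadjusted p under 0.05, 772 genes (5.19%) were higher and 601 (4.04%) lower in 9500+oil mice. DESeq2's Wald test, the tool of the study, gave an adjusted p under 0.05 to 39 higher (0.262%) and 12 lower genes (0.0806%) of 14882. The 3 mice of each group did not overlap for 1171 higher (7.86%) and 1136 lower genes (7.63%). The middle 50% of log2 fold changes lay between -0.13 and 0.14, around a median that the scaling holds near 0. Nothing says whether the mice were housed or processed apart, and the p-values measure the spread between these 3 mice of each group.

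**Figure D1:**
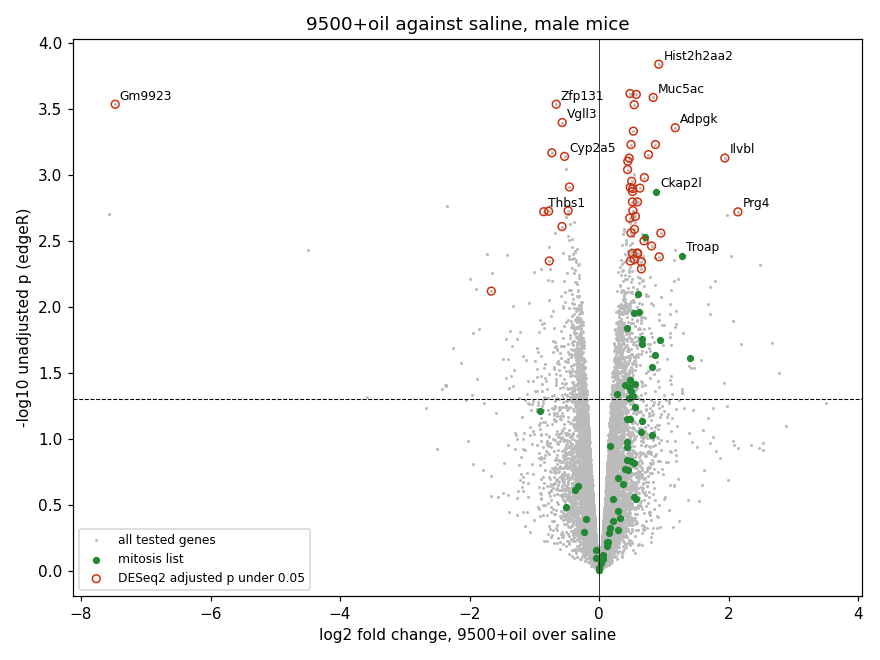
Each point is 1 of 14889 genes, with the log2 fold change of 9500+oil over saline on the x axis and the -log10 of the unadjusted edgeR p on the y axis. Green points are the mitosis genes, mostly to the right of 0, and red rings are the 51 genes with an adjusted p under 0.05 in DESeq2.

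Cd68, Muc5ac and Fxyd5 were among the higher genes of smallest p. Cd68, a glycoprotein of macrophage lysosomes (chromosome 11, 69664213 to 69666153, GRCm38), had 92.2, 80.7 and 82.3 CPM in the saline mice and 124, 139 and 118 CPM in the 9500+oil mice. Its groups did not overlap, which the choice of genes of this rank required. The log2 fold change of Cd68 was 0.58 ± 0.10 (SE, n = 3 mice a group), with an adjusted p of 0.506 in edgeR and 0.0017 in DESeq2. Muc5ac, a gel-forming mucin of goblet cells (chromosome 7, 141788972 to 141819231), had 5.67, 6.25 and 6.64 CPM with saline and 11.6, 10.9 and 10.8 CPM with 9500+oil. Its mice were tight within each group and its log2 fold change was 0.84 ± 0.14 (SE), with an adjusted p of 0.506 in edgeR and 0.0167 in DESeq2. Fxyd5, a regulator of the sodium pump that weakens contacts between epithelial cells (chromosome 7, 31032722 to 31042481), had 178, 174 and 186 CPM with saline and 247, 259 and 244 CPM with 9500+oil. Its log2 fold change was 0.48 ± 0.08 (SE), with an adjusted p of 0.0011 in DESeq2. With GC and length offsets the log2 fold changes of Cd68, Muc5ac and Fxyd5 were 0.55, 0.81 and 0.46.

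Prg4, which encodes lubricin, a secreted lubricant of joints and serous surfaces (chromosome 1, 150449412 to 150466165), had one of the largest differences among the genes named here. Its level was 2.64, 2.47 and 2.80 CPM in the saline mice and 3.54, 13.8 and 17.7 CPM in the 9500+oil mice. Mouse 13 lay just above the saline mice and mice 14 and 15 far above them. The log2 fold change was 2.14 ± 0.49 (SE), with an adjusted p of 0.506 in edgeR and 0.0017 in DESeq2. Without mouse 13 the log2 fold change of Prg4 was 2.58 and its adjusted p in edgeR 0.0133.

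The other higher genes of smallest p have varied roles. Adpgk, a glucokinase that uses ADP, had 6.61, 8.97 and 6.64 CPM with saline and 13.7, 22.1 and 14.6 CPM with 9500+oil. Hist2h2aa2, a histone H2A gene whose near-identical copies make its counts uncertain, had 6.12 to 6.82 CPM with saline and 11.0 to 13.5 CPM with 9500+oil, and its log2 fold change of 0.92 was 0.76 with GC and length offsets. Ilvbl, a thiamine-dependent lyase, had 0.895 to 2.78 CPM with saline and 5.34 to 8.13 CPM with 9500+oil. Cebpa and Cebpb, transcription factors of myeloid and alveolar epithelial cells, passed DESeq2's test, with log2 fold changes of 0.44 and 0.81; both are named although their place in the list was seen first. Further genes of that rank (Zfp414, Tmem86a, Slc8b1, Tuba8 and Mocs1) had log2 fold changes from 0.47 in Mocs1 to 0.87 in Tmem86a.

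Thbs1, Edn1, Cyp2a5 and Zfp131 were among the lower genes of smallest p. Thbs1, thrombospondin 1 of platelets and matrix (chromosome 2, 118111876 to 118127133), had 394, 589 and 316 CPM with saline and 246, 241 and 233 CPM with 9500+oil. Edn1, the vasoconstrictor endothelin 1 (chromosome 13, 42301476 to 42307990), had 27.1, 42.4 and 43.7 CPM with saline and 22.2, 23.7 and 20.2 CPM with 9500+oil. For both the saline mice were spread widely and the 9500+oil mice lay close together below them. The log2 fold changes were -0.85 ± 0.20 (SE) for Thbs1 and -0.78 ± 0.18 (SE) for Edn1, with adjusted p of 0.0054 and 0.0259 in DESeq2 and 0.506 in edgeR. Cyp2a5, a cytochrome P450 of airway and liver (chromosome 7, 26835305 to 26843548), had 43.5, 43.5 and 49.8 CPM with saline and 32.7, 33.3 and 28.7 CPM with 9500+oil. Its log2 fold change was -0.53 ± 0.11 (SE), and its near-identical relatives make its counts uncertain. Zfp131, a zinc finger protein, had 23.3 to 24.7 CPM with saline and 14.1 to 17.1 CPM with 9500+oil, a log2 fold change of -0.66, or -0.58 with GC and length offsets. The other lower genes of that rank (Vgll3, C2cd5, Wdr75, Snx13, Nexn, Rchy1, Slc38a2 and Nol11) had log2 fold changes from -0.77 in Nexn to -0.45 in Rchy1.

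**Figure D2:**
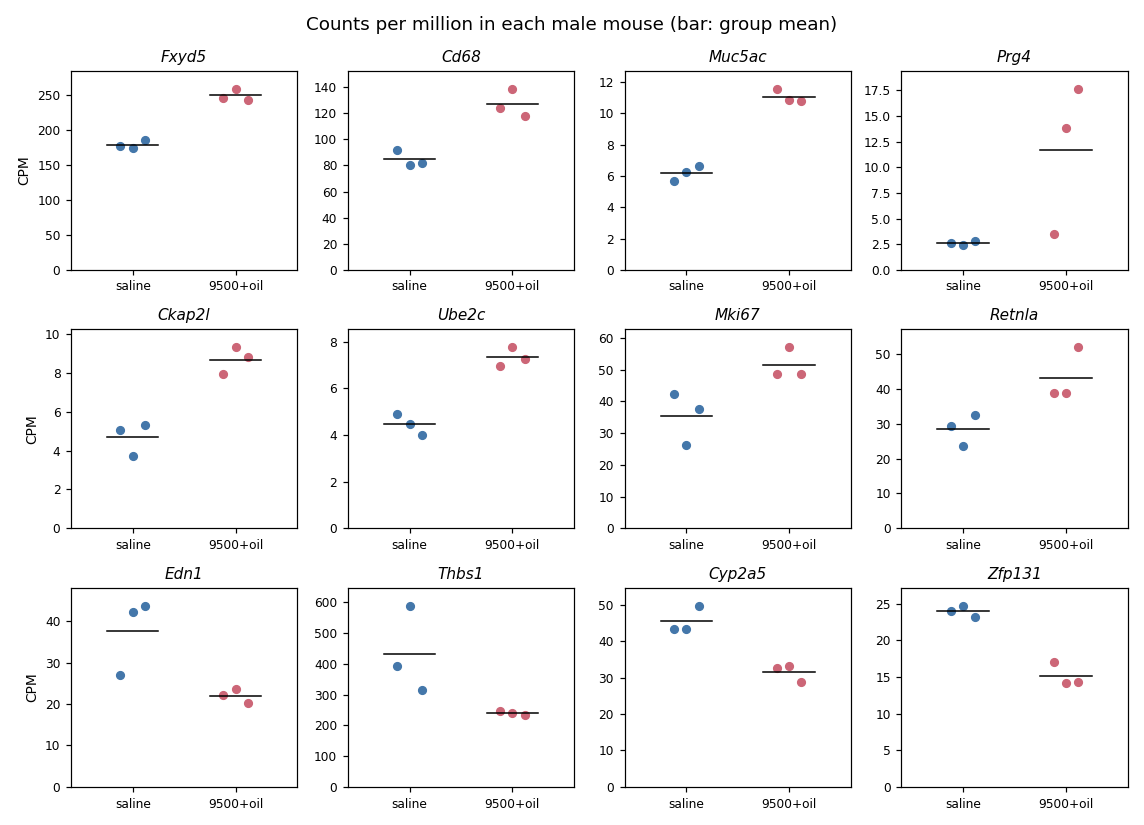
Each dot is 1 male mouse and each bar the mean of 3, with CPM on the y axis from 0; blue is saline and red 9500+oil. In all 12 genes the red dots lie wholly above (first 8 panels) or wholly below (last 4) the blue dots, and Prg4 has 1 red dot near the blue ones. Genes named by smallest p had to have groups that do not overlap, so for them the choice fixed this separation. Of all genes tested, 7.86% lay wholly above and 7.63% wholly below.

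Most mitosis genes were higher in 9500+oil mice. Of 63 tested members of a list of 66, 54 were higher and 9 lower, 21 were higher and 0 lower at an unadjusted p under 0.05, and the median log2 fold change was 0.43. The 21 are 33.3% of the list, where 5.19% of all genes were higher at that p, and 0 members had an adjusted p under 0.05 in edgeR or in DESeq2. The summed level of the list was 454, 336 and 414 CPM in the saline mice and 484, 524 and 482 CPM in the 9500+oil mice. Saline mouse 2 was the lowest of the 6. B cell markers were also lowest in saline mouse 2 and highest in 9500+oil mouse 14, with sums of 1169, 470.02 and 744 CPM with saline and 891, 1271 and 752 CPM with 9500+oil. The sums overlapped, 16 of 20 B cell genes were higher with a median of 0.26, and 0 were at an unadjusted p under 0.05. Their part in the mitosis values was not tested. In bulk tissue more dividing cells and more RNA per dividing cell cannot be told apart.

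The promoters of the 3 mitosis members with the smallest p are shown, since mitotic genes are commonly held to be read through paired CCAAT boxes and the CHR element. They are RefSeq promoters of build GRCm38.p6, 300 bases each, 5′ to 3′ on the gene's strand, with capitals marking CCAAT or its reverse ATTGG and TTTGAA or its reverse TTCAAA. Ckap2l lies on the minus strand of chr2:129297163-129297462, Ube2c on the plus strand of chr2:164769679-164769978 and Troap on the plus strand of chr15:99074723-99075022.
Ckap2l: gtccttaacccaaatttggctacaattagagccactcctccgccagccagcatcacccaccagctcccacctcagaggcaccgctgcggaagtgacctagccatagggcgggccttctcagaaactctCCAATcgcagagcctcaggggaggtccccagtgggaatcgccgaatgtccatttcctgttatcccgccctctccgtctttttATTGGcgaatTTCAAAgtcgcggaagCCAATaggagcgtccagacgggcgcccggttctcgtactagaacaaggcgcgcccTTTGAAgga
Ube2c: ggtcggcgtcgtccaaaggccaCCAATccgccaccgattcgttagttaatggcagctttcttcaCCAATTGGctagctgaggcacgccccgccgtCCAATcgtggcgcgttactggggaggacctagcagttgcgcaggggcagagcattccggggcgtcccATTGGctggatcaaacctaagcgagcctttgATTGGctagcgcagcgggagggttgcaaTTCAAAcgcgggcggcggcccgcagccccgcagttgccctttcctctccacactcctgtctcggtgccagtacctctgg
Troap: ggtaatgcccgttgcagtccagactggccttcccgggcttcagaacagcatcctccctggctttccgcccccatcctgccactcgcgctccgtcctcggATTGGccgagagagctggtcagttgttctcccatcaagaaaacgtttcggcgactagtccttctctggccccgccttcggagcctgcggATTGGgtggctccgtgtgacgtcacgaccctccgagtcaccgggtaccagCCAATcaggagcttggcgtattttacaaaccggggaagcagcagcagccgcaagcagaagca
Ckap2l held 2 TTTGAA-type and 3 CCAAT-type matches, Ube2c 1 and 6, and Troap 0 and 3. Of the 53 mitosis genes with a promoter in the table, 38 (71.7%) held a TTTGAA-type and 37 (69.8%) a CCAAT-type match, against 18.1% and 37.9% of all 27025 promoters, 1 for each gene symbol, searched on both strands. The CCAAT-type share did not set them apart from the heat shock and unfolded protein response genes, of which 18 of 24 (75%) held such a match and 0 a TTTGAA-type one. These matches belong to the members as a class and use no value of this comparison.

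Ckap2l, a spindle protein, had 5.07, 3.73 and 5.33 CPM with saline and 7.94, 9.32 and 8.80 CPM with 9500+oil. Ube2c, the ubiquitin carrier of the anaphase-promoting complex, had 4.92, 4.46 and 4.02 CPM with saline and 6.98, 7.77 and 7.25 CPM with 9500+oil. Troap, a spindle protein, had 0.895, 0.84 and 0.903 CPM with saline and 2.29, 1.61 and 2.51 CPM with 9500+oil. In these 3 genes the groups did not overlap. Their log2 fold changes were 0.88 ± 0.19, 0.71 ± 0.18 and 1.28 ± 0.33 (SE), with an adjusted p of 0.506 in edgeR. Mki67, the common marker of dividing cells, had 42.4, 26.1 and 37.6 CPM with saline and 48.5, 57.0 and 48.5 CPM with 9500+oil, and its log2 fold change was 0.54 ± 0.17 (SE). Foxm1, a transcription factor of the mitotic program, had a log2 fold change of 0.60 ± 0.18 (SE). Top2a, the DNA topoisomerase of dividing cells, overlapped between the groups, with 19.1, 10.7 and 13.9 CPM against 21.2, 20.4 and 18.7 CPM. Cdk1, the kinase that starts mitosis, and Ccnb1, its cyclin, had log2 fold changes of 0.06 and 0.29, within their standard errors of 0.27 and 0.30. Ncapg, a condensin subunit, was on the other side, with 1.39, 1.63 and 1.40 CPM against 0.717, 0.428 and 1.19 CPM. Cenpa, the histone of the centromere, and Bub1, a checkpoint kinase, overlapped between the groups with log2 fold changes of -0.33 and -0.36.

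With GC and length offsets 21 mitosis genes were again higher at that p, with a median of 0.45. Leaving out saline mouse 2 brought the number to 10 with a median of 0.28, and leaving out 9500+oil mouse 14 brought it to 8 with a median of 0.40. The direction held in both, with 46 and 52 of 64 tested members higher. Over all genes, 813 of 15158 were higher at that p without saline mouse 2 and 396 of 15181 without 9500+oil mouse 14. With all 6 libraries it was 772 of 14889.

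**Figure D3:**
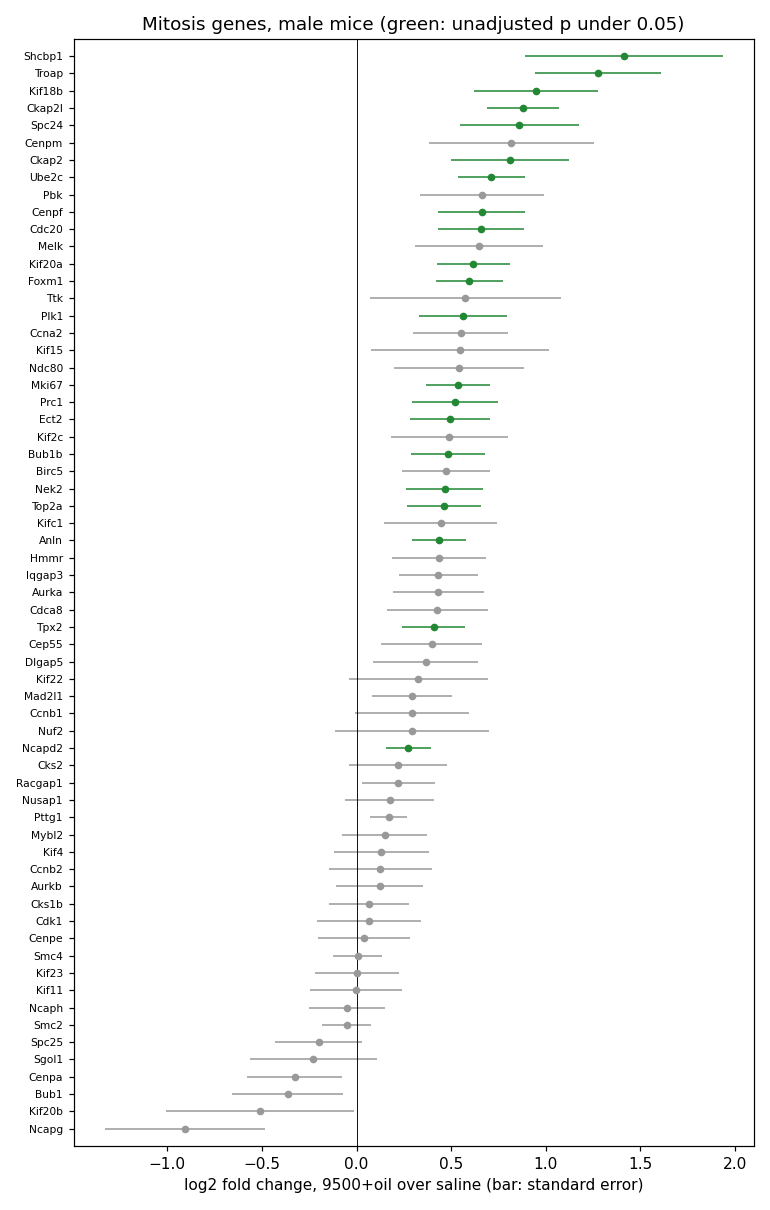
Each row is 1 of 63 mitosis genes, with the log2 fold change of 9500+oil over saline on the x axis and its standard error as a bar; green marks an unadjusted p under 0.05. The points run from -0.91 (Ncapg) to 1.41 (Shcbp1), and 54 lie to the right of 0.

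The other lists of the cell cycle and DNA repair are read against the 5.19% of all genes that were higher at an unadjusted p under 0.05. Of 55 S phase and DNA replication genes 40 were higher, 4 of them and 0 lower ones at that p (7.27%), with a median of 0.08, and with 1 mouse left out 2 to 9 were. Rrm2, a subunit of ribonucleotide reductase, was 0.39 higher on the log2 scale, while Pcna, the sliding clamp of replication, was at 0.03 with overlapping groups. The helicase subunits Mcm2 and Mcm5 were at 0.26 and 0.80, Ung, which removes uracil from DNA, at 1.12, E2f2 at 0.31 and Uhrf1, which carries DNA methylation through replication, at 0.43. On the lower side were Rfc1 at -0.69, Gins1 at -0.45 and Slbp at -0.08, all with overlapping groups. Of 60 DNA repair genes 34 were higher, 2 of them at that p (3.33%), with a median of 0.02. Without saline mouse 2 the repair list had 25 higher and 35 lower genes and 0 at that p. Brca1 and Rad51ap1 of homologous recombination stood at 0.49 and 1.12, both with overlapping groups, and Fancg of the Fanconi complex at 0.42. Nbn, Fancc and Polh stood at -0.23, -0.20 and -0.23. The 11 DNA damage response genes that the study took to PCR were chosen on these libraries in Corexit 9527 mice, so their direction is not independent evidence. Of the 11, 9 were higher and 3 of those at that p (27.3%), with a median of 0.43, and Clspn, a checkpoint mediator, had 3.48, 1.78 and 2.66 CPM with saline and 4.69, 5.68 and 3.65 CPM with 9500+oil. Of the same 11, 2810417H13Rik and Dtl stood at 0.65 and 0.61 on the log2 scale, Chek1 at 0.23, Chek2 at -0.20 and Bard1 at -0.06. Without saline mouse 2, or without 9500+oil mouse 14, 0 of the 11 were at that p. Over all genes 813 of 15158 and 396 of 15181 were higher at that p in these fits. Of 33 p53 targets 14 were higher and 19 lower, 3 (9.09%) and 0 of them at that p. With 1 mouse left out 0 to 4 were higher and 0 to 2 lower at that p. Their median was -0.01, and 0.03 without 9500+oil mouse 14. Cdkn1a, the cell cycle inhibitor p21, had overlapping groups and a log2 fold change of -0.20. Bbc3, Sesn2 and Trp53 itself were at 0.59, 0.28 and 0.26, each at an unadjusted p under 0.05, while Mdm2, Ccng1, Eda2r, Tnfrsf10b and Sfn were at -0.13, -0.10, -0.60, -0.55 and -0.25.

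Macrophage and lysosome genes were mixed. Of 36 macrophage genes 22 were higher, with a median of 0.12. Of the 36, 3 were higher (8.33%) and 2 lower (5.56%) at an unadjusted p under 0.05, beside 5.19% and 4.04% of all genes, and with 1 mouse left out 1 to 8 were higher and 0 to 3 lower at that p. Gpnmb, a glycoprotein of lipid-laden macrophages, had 12.1 to 16.0 CPM with saline and 16.6 to 20.5 CPM with 9500+oil. Cd36, a scavenger receptor, was on the other side, with 917, 926 and 1116 CPM against 843, 748 and 875 CPM. Marco, a scavenger receptor of alveolar macrophages, ran from 12.4 to 26.4 CPM with saline and from 14.5 to 46.7 CPM with 9500+oil. Ctsd, cathepsin D, stood at 0.29 on the log2 scale, Ear1 at -0.52, and Fabp4, a fatty acid-binding protein, at -0.29. Of 34 lysosome genes 20 were higher, 6 of them (17.6%) and 1 lower (2.94%) at that p, with a median of 0.07. With GC and length offsets 3 and 0 were, and without saline mouse 3 it was 1 and 1. Ctsb, the protease cathepsin B, had 582, 580 and 537 CPM with saline and 634, 764 and 707 CPM with 9500+oil, a log2 fold change of 0.31 ± 0.10 (SE). Lamp1 of the lysosome membrane was at 0.22 and Ctss at 0.05, while the proton pump subunits Atp6v1h and Atp6v1a were at -0.25 and -0.17.

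Of 17 chitinase-like and alternative macrophage activation genes 9 were higher and 8 lower, with a median of 0.01 that was -0.10 without saline mouse 1. Retnla, a secreted protein of such macrophages and of airway epithelium, had 29.4, 23.6 and 32.6 CPM with saline and 38.9, 38.8 and 51.9 CPM with 9500+oil, a log2 fold change of 0.60 ± 0.16 (SE). Alox15, a lipoxygenase, was 1.16 higher on the log2 scale, while Chil3 overlapped between the groups at -0.30. Pdcd1lg2 stood at 0.93, Mgl2 at -0.27 and Slc26a4 at -0.37.

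The neutrophil list rested on 1 mouse. Of 22 genes 19 were higher, 2 of them (9.09%) and 1 lower (4.55%) at an unadjusted p under 0.05, beside 5.19% and 4.04% of all genes, with a median of 0.31, but without 9500+oil mouse 13 the count was 5 of 22 with a median of -0.15. S100a8, a subunit of the antimicrobial protein calprotectin, had 33.2, 41.7 and 46.7 CPM with saline and 151, 42.5 and 36.6 CPM with 9500+oil, with mouse 13 alone far above. S100a9, its partner, Retnlg and Csf3r, the receptor of granulocyte growth factor, also had their highest level in mouse 13, with log2 fold changes of 0.78, 0.30 and 0.76. The granule genes Ngp and Ltf stood at -2.13 and -0.68, and Fpr2, a chemotactic receptor, at -0.16. The summed level of the list was 704 to 810 CPM in the saline mice, 1491 CPM in mouse 13, and 750 and 743 CPM in mice 14 and 15. Of 14 CC chemokines 13 were higher, 2 of them (14.3%) at that p and 1 without 9500+oil mouse 13 or 15, with a median of 0.21. Ccl6, a chemokine of macrophages, had 157, 139 and 164 CPM with saline and 189, 183 and 249 CPM with 9500+oil. Ccl9 was at 0.46, Ccl3 and Ccl4 at 0.58 and 0.52, Ccl2 at 0.20, Ccl17 at 0.07 and Ccl21a at -0.16 on the log2 scale. Of 23 acute phase and secreted defense genes 14 were higher, with a median of 0.01, but without 9500+oil mouse 15 the count was 5 with a median of -0.12. Saa3, the inducible serum amyloid A of the lung, overlapped between the groups at 0.892 to 5.27 and 1.77 to 4.11 CPM. Timp1, Serpina3n and Hp stood at 0.38, 0.31 and 0.09, and Bpifa1, Steap4 and Orm1 at -0.97, -0.29 and -0.61.

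The lists of responses to chemicals and injury had medians between -0.13 and 0.05. Of 16 aryl hydrocarbon receptor targets 6 were higher and 10 lower with a median of -0.05, which became 9, 7 and 0.03 without 9500+oil mouse 14, and Cyp1a1, the classic target of oil hydrocarbons, had 28.6, 27.2 and 20.999 CPM with saline and 26.1, 15.2 and 21.4 CPM with 9500+oil. Cyp1b1, Ahrr and Cyp2s1 stood at 0.22, 0.78 and 0.12 on the log2 scale, and Tiparp, Nqo1 and Ugt1a6a at -0.04, -0.50 and -0.15. Of 30 Nrf2 targets of oxidative stress 20 were lower, with a median of -0.06, and 5 (16.7%) were lower at an unadjusted p under 0.05, beside 4.04% of all genes. The count was 2 with GC and length offsets, 1 without saline mouse 2 and 0 without 9500+oil mouse 14. Over all genes 455 of 15158 and 305 of 15181 were lower at that p without these mice in turn. Srxn1, sulfiredoxin, had 32.4, 33.3 and 26.1 CPM with saline and 25.004, 19.4 and 26.05 CPM with 9500+oil. Gstp1 and Gsta3, glutathione transferases, were at -0.28 and -0.22, Gclc and Gclm of glutathione synthesis at -0.08 and -0.05, and Hmox1, Cat, Osgin1 and Gsta2 at 0.08, 0.18, 0.23 and 0.47. Of 22 lung xenobiotic enzymes 10 were higher and 12 lower, with a median of -0.02. With GC and length offsets these were 12, 10 and 0.02, and without 9500+oil mouse 14 they were 14, 9 and 0.04. Por, the electron donor of the P450 enzymes, was at 0.31 and Cyp2e1 at 0.28, while Cyp2f2, Cyp2b10, Cyp4b1 and Sult1d1 were at -0.03, 0.03, -0.18 and -0.39. Of 17 epithelial injury genes 10 were higher, with a median of 0.05. Of 12 goblet cell mucus genes 4 were higher and 8 lower, with a median of -0.13 that ran from -0.31 to 0.01 with 1 mouse left out. In the goblet list Muc5ac and the second airway mucin, Muc5b, were higher, by 0.84 and 0.40 on the log2 scale, while Clca1 was at -0.38. Gp2 was at 0.65, and Agr2, Galnt12 and Bpifb1 at -0.13, -0.31 and -0.14. In the injury list Sprr1a, Plaur, Hbegf, Krt19 and Clu were at 0.53, 0.42, 0.31, 0.19 and 0.09, and Krt8, Itgb6 and Krt5 at -0.02, -0.32 and -0.67.

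Heat shock genes also rested on 1 mouse. Of 28 heat shock and unfolded protein response genes 22 were lower, 8 of them (28.6%) at an unadjusted p under 0.05, beside 4.04% of all genes, with a median of -0.17. With GC and length offsets 5 were lower at that p, but without saline mouse 2 the count was 13 lower and 15 higher with a median of 0.02. Hspa1b, an inducible heat shock protein of the HSP70 family, had 11.1, 234 and 20.5 CPM with saline and 10.6, 25.6 and 15.3 CPM with 9500+oil, and Hspa1a, its near-identical neighbour, had 145 CPM in saline mouse 2. Hspb1, a small heat shock protein, was lower in all 3 treated mice than in all saline mice, with a log2 fold change of -0.77 and an adjusted p of 0.0335 in DESeq2. Hsp90aa1 and Hspa5, chaperones of the cytosol and of the endoplasmic reticulum, were at -0.54 and -0.34, Ddit3 at -0.20, and Calr, Asns and Xbp1 at 0.15, 0.12 and 0.11.

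Of 25 immediate early genes 12 were higher and 13 lower, with a median of -0.08 that was 0.05 without saline mouse 1, and of 19 clock genes 11 were higher and 8 lower, with a median of 0.23 that was -0.05 without the same mouse. Dbp, an output gene of the clock, had 7.56, 21.2 and 30.6 CPM with saline and 33.6, 109 and 64.5 CPM with 9500+oil, and Nr1d1, another, had 118 to 380 and 293 to 537 CPM. Per1 and Bhlhe41 stood at 0.45 and 0.72 on the log2 scale, and Arntl, Clock and Nfil3 at -0.36, -0.26 and -0.48. Among the immediate early genes Jund, Zfp36, Jun and Junb were at 0.27, 0.54, 0.29 and 0.19, and Fos, Egr1, Nr4a3, Atf3 and Ier2 at -0.95, -0.90, -0.99, -0.48 and -0.12. The hour of death is not given in the sources used here.

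Markers of other cells are read against the 4.04% of all genes that were lower at an unadjusted p under 0.05. Of 24 endothelial genes 21 were lower, with a median of -0.07, and 2 (8.33%) at that p, or 4 with GC and length offsets. With 1 mouse left out 1 to 4 were lower at that p, with medians from -0.15 to -0.03. The von Willebrand factor gene Vwf was at -0.25, Esam at -0.23, and Pecam1, Kdr and Cldn5 at -0.07, -0.11 and -0.13, while Cdh5, Plvap and Sox18 were at 0.18, 0.14 and 0.10. Of 13 mesothelial genes 10 were lower, 4 of them (30.8%) at that p and 2 without saline mouse 1 or 9500+oil mouse 15, with a median of -0.22, although Prg4, which is on that list, was higher. The summed level of the mesothelial list was 2035 to 2333 CPM in the saline and 1800 to 2076 CPM in the 9500+oil mice, and Msln and Upk3b, its defining markers, were present in all. Upk3b, Bnc1, Gpm6a, Lrrn4 and Wt1 stood at -0.28, -0.70, -0.24, -0.26 and -0.22, and Muc16 at 0.05. Of 17 heart muscle genes 15 were lower, 2 of them (11.8%) at that p and 0 without saline mouse 2 or 9500+oil mouse 14, with a median of -0.30, and the summed level of that list was 466 to 711 CPM with saline and 413 to 592 CPM with 9500+oil. Ttn, Pln, Myl7, Nppa, Actc1 and Tnnt2 stood at -0.51, -0.99, -0.36, -0.62, -0.25 and -0.21, and Myl3 at 0.44. The part of heart tissue in the other results was not tested.

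**Figure D4:**
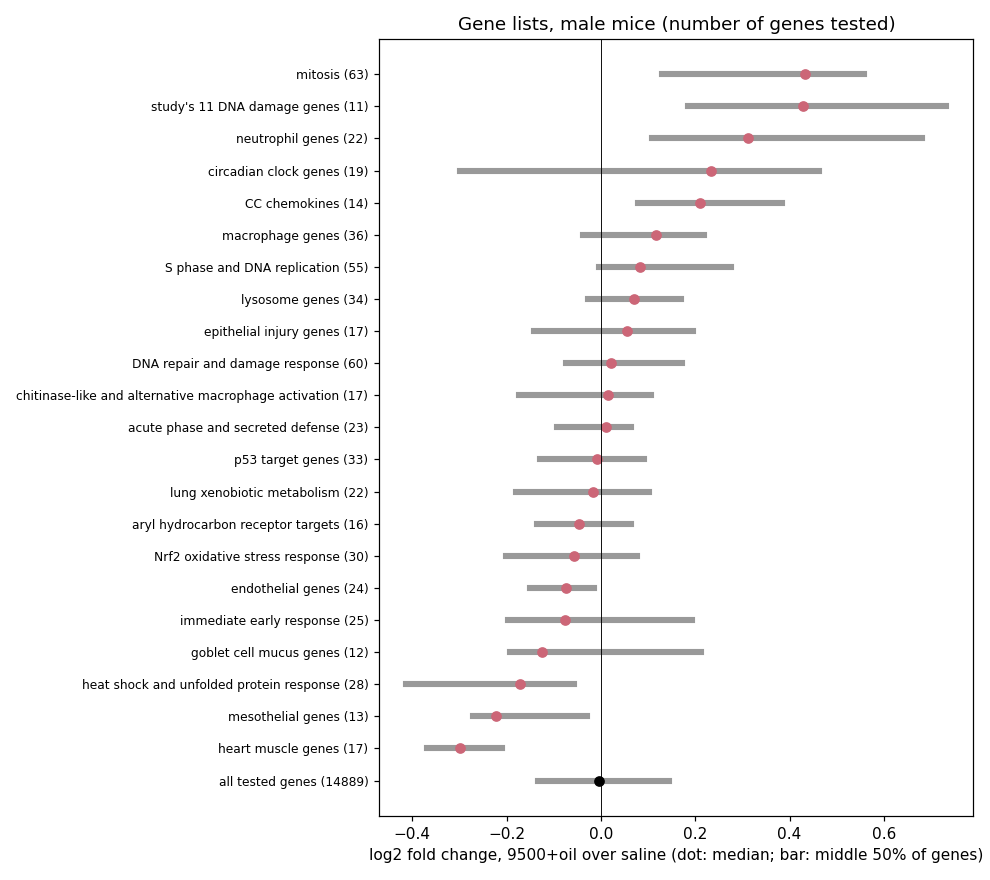
Each row is a gene list with the number of genes tested; the dot is the median and the bar the middle 50% of the log2 fold changes of 9500+oil over saline. All genes (black) centre on 0.00, mitosis stands at 0.43 and heart muscle at -0.30.

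The 9500+oil mice were also set against the groups given either component alone, which share those 3 libraries with the comparison above. Against Corexit 9500, 0 of 15087 genes (0%) had an adjusted p under 0.05 in edgeR, 340 (2.25%) were higher and 334 (2.21%) lower at an unadjusted p under 0.05, and DESeq2 gave 5 higher (0.0331%) and 5 lower (0.0331%). The groups did not overlap for 737 higher (4.89%) and 791 lower genes (5.24%). Retnla was lower with the mixture, at 38.9, 38.8 and 51.9 CPM against 160, 305 and 104 CPM with Corexit 9500, a log2 difference of -2.13 ± 0.35 (SE) with an adjusted p of 0.0204 in DESeq2. Spp1, the matrix protein osteopontin, and Thbs1 were lower as well, with log2 differences of -0.91 and -0.66, and Irf7, a transcription factor of the interferon response, was 0.67 higher. Of 37 interferon-induced genes 36 were higher and 1 lower, 17 and 0 at an unadjusted p under 0.05. Their summed level was 1472, 1404 and 1340.5 CPM with the mixture and 1211, 1177 and 1099 CPM with Corexit 9500. With saline it was 1403, 1386 and 1336 CPM, so the mixture and saline overlapped. mt-Co3, Ilvbl, Rgs9 and Cebpa were at 0.90, 1.40, 0.48 and 0.38, and Cdk10 and Clca3 at -0.63 and -2.62. Mitosis genes were lower in 63 of 64 cases, 25 of them at an unadjusted p under 0.05, with a median of -0.50. Pttg1, securin, which holds back the separation of chromosomes, was the 1 higher gene, at 0.24 and an unadjusted p under 0.05; it is named after its value was seen. The summed level of the list was 730, 737 and 492 CPM with Corexit 9500 and 484, 524 and 482 CPM with the mixture, so Corexit 9500 mouse 9 lay within the range of the mixture and mice 7 and 8 above it.

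Against oil alone, 0 of 14889 genes (0%) passed in edgeR, with a lowest adjusted p of 0.131, 296 (1.99%) were higher and 452 (3.04%) lower at an unadjusted p under 0.05, and DESeq2 gave 3 higher (0.0202%) and 25 lower (0.168%). The groups did not overlap for 701 higher (4.71%) and 799 lower genes (5.37%). The lower genes of smallest p included Saa3, Lcn2 and Cfb, which are known from acute inflammation. Saa3 had 38.7, 16.8 and 41.2 CPM with oil and 1.77, 2.14 and 4.11 CPM with the mixture, a log2 difference of -3.58 ± 0.42 (SE). Lcn2, a siderophore-binding defense protein, had 480, 320 and 543 CPM with oil and 172, 149 and 174 CPM with the mixture, and Cfb, complement factor B, had 163, 103 and 173 CPM against 45.4, 52.6 and 50.4 CPM. The adjusted p of Saa3, Lcn2 and Cfb were 0.131 in edgeR and 4.18e-20, 2.15e-12 and 2.22e-13 in DESeq2. Ly6i and Tbxas1 were at -1.97 and -1.02, and on the higher side Dhrs7, Trappc6b, Polr1a, Fabp1 and Stox2 were at 0.58, 0.58, 0.66, 1.01 and 0.68. Of 22 neutrophil genes 22 were lower with the mixture than with oil, 3 of them at an unadjusted p under 0.05, but the groups did not overlap for only 1 of the 22. The summed level of the list was 1189, 1215 and 2141 CPM in the oil mice and 1491, 750 and 743 CPM in the 9500+oil mice. Mouse 13 lay above oil mice 4 and 5, and oil mouse 6 stood far above the rest. Of 23 acute phase and secreted defense genes 19 were lower and 4 higher, 13 and 1 at an unadjusted p under 0.05. For all genes these shares were 3.04% and 1.99%. Of 36 macrophage genes 29 were lower and 7 higher, 16 and 0 at that p. Of 64 mitosis genes 60 were lower and 4 higher, 10 and 0 at that p, with a median of -0.32. The summed mitosis level was 588, 492 and 702 CPM with oil and 484, 524 and 482 CPM with the mixture.

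**Figure D5:**
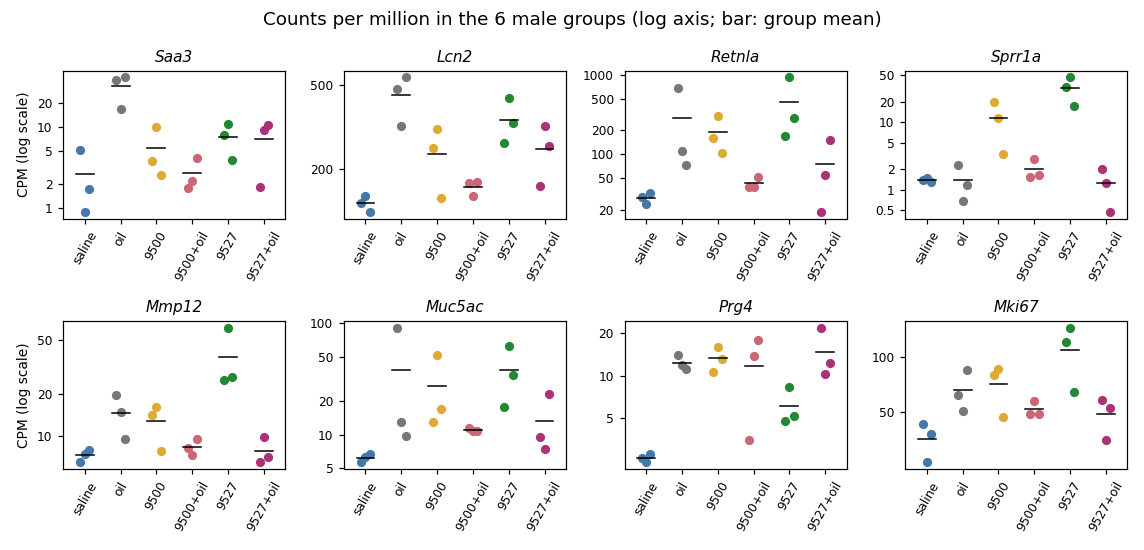
Each dot is 1 male mouse in 1 of 6 groups and each bar a mean of 3, with CPM on a logarithmic y axis. For Saa3, Lcn2, Retnla and Mmp12 the 9500+oil dots lie near saline and below most of the oil, Corexit 9500 and Corexit 9527 dots, while Prg4 is above saline in every treated group.

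The sexes were compared by the interaction of sex and treatment, the log2 fold change of 9500+oil over saline in male minus that in female mice, with 12 libraries in the fit. Since male and female mice were treated apart, sex and the round of treatment cannot be told apart. Of 15318 genes 0 (0%) had an adjusted p under 0.05 in edgeR, the treatment difference was higher in male than in female mice for 42 (0.274%) and lower for 36 (0.235%) at an unadjusted p under 0.05, and DESeq2 gave 0 higher (0%) and 2 lower (0.0133%). The 2, Gm12918 and Rpl10a-ps1, are processed pseudogenes whose reads a parent gene can share. Female saline mouse 3 and female 9500+oil mouse 14 had 45.1% and 20.7% of their counts in mitochondrial genes, against 5.27% to 7.68% over all 18 male libraries. Without these 2 mice 15487 genes were tested. The difference was higher in male mice for 218 of them and lower for 189 at an unadjusted p under 0.05. In edgeR 0 of the 15487 passed the adjusted p. Muc5ac had 9.13, 49.3 and 221 CPM in female saline and 9.82, 12.8 and 15.6 CPM in female 9500+oil mice, overlapping groups, and its interaction had a log2 value of 3.67, or 2.03 without the 2 mice. Saa3, Timp1, Lcn2 and Prg4 had interactions of 4.30, 1.68, 1.06 and 3.94. Mef2c, Cyp1a1, Rpl10a-ps1 and Enpp6 had interactions of -6.54, -1.55, -10.94 and -1.30. In edgeR all of these genes had an adjusted p of 1.00.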

How the data were processed

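RNA was sequenced from left lungs. The authors estimated transcript reads with Salmon on GRCm38 and combined them with tximport. They deposited expected counts, already whole numbers, for male mice (18295 rows) and female mice (18120 rows). Of the male rows, 4 that shared a name were dropped (0.0128% of counts) and 20 date-named rows were kept. Of all names 95.29% matched GENCODE M21.

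Genes were tested with edgeR 4.0.16 (quasi-likelihood test, TMM, filterByExpr, Benjamini-Hochberg) in R 4.3.3, with the libraries of the compared groups only. Alternatives were DESeq2 1.42.0, limma 3.58.1, other scalings and filters, all groups in one fit and each mouse left out. GC and length offsets, the fit without 2 female mice and that with mouse number as a block were added after the data were seen. The tests were checked on simulated counts. Chi-square per gene between the 6 libraries was 15.27 to 38.68, and none was treated as a duplicate.

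Genes were named by p (12 each way, groups not overlapping, mean of at least 1 log2 CPM; 5 each way in other comparisons), the first 4 of each list and the 3 members each way with the smallest p. Further genes were named after their values were seen: Cebpa, Cebpb, Foxm1, Shcbp1, Pttg1, Gm12918 and Hspa1a's levels by mouse. Some genes that this rule picks are not reported here. The comparison and lists were chosen with earlier results of these data known. Depth limits weak genes, and no interval was computed for counting error.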

Additional observations from a re-analysis of the deposited data

Results flagged for a closer look

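Zfp131 went opposite ways in the sexes. It had 24.0, 24.7 and 23.3 CPM in male saline and 17.1, 14.1 and 14.4 CPM in male 9500+oil mice, but 10.4, 16.3 and 4.81 CPM in female saline and 20.1, 57.4 and 21.9 CPM in female 9500+oil mice. The groups of neither sex overlapped. The interaction was -2.31 ± 0.67 (SE) on the log2 scale, with an adjusted p of 1.00 in edgeR and 1 in DESeq2, and -1.32 without female saline mouse 3 and female 9500+oil mouse 14. Over all 15318 genes, 26 (0.17%) went opposite ways without overlap in either sex and 15 (0.0979%) the same way.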

How the results depend on the processing

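No paired analysis was possible within male mice because the compared groups share no mouse numbers. Male and female mice do share numbers, but they are different mice, and the correlations of their deviations from the group means ran from -0.077 to 0.239 over the 6 numbers, so the numbers were not taken as pairs. With the mouse number as a replicate block, chosen after the data were seen, the interaction of sex had 0 genes with an adjusted p under 0.05 in edgeR, and 20 higher and 15 lower in place of 42 and 36 at an unadjusted p under 0.05. Between 9500+oil and saline the count of genes with an adjusted p under 0.05 was 0 in edgeR under all scalings and filters, all groups in one fit, GC and length offsets and limma's voom, but 51 in DESeq2. Without 1 mouse it lay between 0 and 3 (Gm28661 without saline mouse 2, Ndufa9, Prg4 and Ubp1 without 9500+oil mouse 13, Nrbp2 without 9500+oil mouse 15). Without 1 mouse the count at an unadjusted p under 0.05 ran from 396 to 1097 genes higher and 305 to 828 lower, lowest without 9500+oil mouse 14. DESeq2 gave 10 genes against Corexit 9500, 28 against oil and 2 in the interaction of sex, where edgeR gave 0, and without 1 mouse the count against oil lay between 0 and 3. The causes were not tested. With 3 mice a group, genes under about 1 CPM rest on few counts.

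Some log2 fold changes against saline turned sign. Without 1 mouse in turn they ran as follows: Cdk1 -0.126 to 0.23, Pcna -0.046 to 0.094, Chek1 -0.085 to 0.485, Bard1 -0.173 to 0.116, Cdkn1a -0.434 to 0.024, Ctss -0.085 to 0.179, S100a8 -0.034 to 1.252, S100a9 -0.327 to 1.14, Retnlg -0.539 to 0.618, Fpr2 -0.253 to 0.046, Ccl2 -0.043 to 0.482, Ccl17 -0.152 to 0.281, Saa3 -0.428 to 1.023, Hp -0.001 to 0.144, Bpifb1 -0.316 to 0.032, Krt8 -0.098 to 0.051, Tiparp -0.111 to 0.005, Hmox1 0 to 0.149, Gclc -0.209 to 0.037, Cyp2f2 -0.086 to 0.005, Cyp2b10 -0.11 to 0.165, Hspa1a -2.444 to 0.081, Hspa1b -2.895 to 0.113, Ddit3 -0.4 to 0.122, Xbp1 -0.015 to 0.298, Junb -0.096 to 0.388, Ier2 -0.263 to 0.027, Arntl -0.709 to 0.018, Pecam1 -0.169 to 0.006, Cldn5 -0.232 to 0.015, Sox18 -0.089 to 0.297, Wt1 -0.448 to 0.135, Muc16 -0.2 to 0.255, Myh6 -0.384 to 0.304. With GC and length offsets they were Bard1 0.009, Tiparp 0.049, Gclm 0.032, Sox18 -0.051. With limma voom with quality weights they were Retnlg -0.097, Krt8 0.006. Of the 22 gene lists described, the median of 11 changed sign without 1 mouse, those of DNA repair, p53 targets, neutrophil, acute phase, chitinase-like, goblet, aryl hydrocarbon receptor, xenobiotic, heat shock, immediate early and clock genes, and that of 3 (acute phase, chitinase-like and xenobiotic genes) under another alternative.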
